A study of Mus musculus with 14 samples.

Results

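The long noncoding transcripts of the Prader-Willi domain were Snhg14, Ipw, Gm26504, A230006K03Rik, B230209E15Rik, Gm31445 and A330076H08Rik. Every probe set whose platform annotation holds any of these 7 symbols was taken, whatever its values, which gave 12 of the 45037 probe sets on the array that are not controls, for 7 of 19324 annotated genes. Snhg14 and A230006K03Rik had 3 probe sets each, A330076H08Rik and Gm31445 had 2 each, and Ipw, Gm26504 and B230209E15Rik had 1 each. A single probe set annotated to both A230006K03Rik and Gm31445 is counted for each of them.

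RNA came from whole brain and from vastus lateralis, a quadriceps muscle. The mice were PWS-IC del mice, in which the Prader-Willi syndrome imprinting center is deleted, and their age-matched wild-type littermates, on a background that is an F1 hybrid of FVB and B6. In brain and again in muscle, 4 wild-type and 3 PWS-IC del samples were each put on an Affymetrix Mouse Genome 430 2.0 array. The titles name the samples biological replicas and do not say which brain and muscle samples share a mouse. Age, sex, the extent of the deletion and the parent that passed it on are not known here.

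The Prader-Willi domain is a stretch of mouse chromosome 7 in which a group of genes is transcribed from the paternal chromosome only. The imprinting center lies at the start of Snrpn and keeps the paternal copy of the domain active, so that a paternal deletion silences its genes. Snhg14 is a very long transcript of the paternal chromosome in neurons that carries the snoRNAs of the domain in its introns, among them the Snord116 and Snord115 clusters, and continues antisense to Ube3a, the ubiquitin ligase gene whose maternal copy is the active copy in neurons. Ipw is a spliced noncoding transcript from the same stretch. snoRNAs are small nucleolar RNAs that guide the chemical modification of other RNAs.

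In RefSeq (GRCm38.p6), 206 snoRNA genes lie inside the span of Snhg14, as does Ipw, and Gm26504 is a snoRNA gene inside the span of Ipw. On the other side of Snurf and Snrpn follow Gm29729, A230006K03Rik, B230209E15Rik and a cluster of Mir344 microRNA genes. That cluster holds A230057D06Rik and A330076H08Rik, and beyond it lie the protein genes Ndn, Magel2, Mkrn3 and Peg12. RefSeq now lists Gm31445 as a synonym of A230006K03Rik and C230091D08Rik as a synonym of Snhg14, so their probe sets may report stretches of the same transcripts. RefSeq was used only for names, for order and for sequences, and where each probe set lies along its transcript was not analysed here.

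The starts of Snhg14, A230006K03Rik (upstream start), B230209E15Rik and A330076H08Rik fall into 2 groups of related sequence, which are shown because the same transcripts are followed in the arrays. Windows of 250 bases before to 50 bases after each annotated start were taken from RefSeq, and 5 of the 7 members matched a window, Gm26504 and Gm31445 having none. The window of Snhg14 is the same as that of the most upstream Snrpn start, both at chr7:60450128-60450427 on the minus strand. It resembles the next Snrpn start, at chr7:60140176-60140475 on the minus strand, with 252 of 284 aligned bases identical (88.7%). Both are printed 5′ to 3′ with capitals for gapless runs of 8 or more bases that are identical in their local alignment.
Snhg14: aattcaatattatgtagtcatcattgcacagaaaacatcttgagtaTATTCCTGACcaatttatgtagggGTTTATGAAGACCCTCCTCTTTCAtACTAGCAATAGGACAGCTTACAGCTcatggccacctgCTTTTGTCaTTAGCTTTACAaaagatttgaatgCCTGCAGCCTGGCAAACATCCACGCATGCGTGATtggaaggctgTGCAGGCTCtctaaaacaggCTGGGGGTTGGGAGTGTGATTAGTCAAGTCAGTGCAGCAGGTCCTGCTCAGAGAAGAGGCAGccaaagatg
Snrpn, second start: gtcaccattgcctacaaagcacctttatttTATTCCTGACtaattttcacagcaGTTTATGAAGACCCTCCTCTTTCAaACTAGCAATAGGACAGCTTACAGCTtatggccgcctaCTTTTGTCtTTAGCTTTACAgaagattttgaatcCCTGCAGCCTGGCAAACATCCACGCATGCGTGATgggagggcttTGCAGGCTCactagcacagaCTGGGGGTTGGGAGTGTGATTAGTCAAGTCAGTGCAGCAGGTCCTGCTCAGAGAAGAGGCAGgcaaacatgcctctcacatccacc
The longest shared run of this pair has 62 bases and lies around the annotated start. Among the other 32816 distinct windows, the 2 best local alignment scores for the Snhg14 window were 218.0 and 209.0, both to Snrpn starts, and the next best was 33.5.

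The upstream starts of A230006K03Rik (chr7:61311600-61311899), B230209E15Rik (chr7:61615278-61615577) and A330076H08Rik (chr7:61982306-61982605), all on the minus strand, form the other group. A230006K03Rik and B230209E15Rik share 226 of 263 aligned bases (85.9%), and A230006K03Rik and A330076H08Rik share 186 of 246 (75.6%). Capitals mark runs of 8 or more bases identical to A230006K03Rik, or, in A230006K03Rik itself, to either of the others.
A230006K03Rik: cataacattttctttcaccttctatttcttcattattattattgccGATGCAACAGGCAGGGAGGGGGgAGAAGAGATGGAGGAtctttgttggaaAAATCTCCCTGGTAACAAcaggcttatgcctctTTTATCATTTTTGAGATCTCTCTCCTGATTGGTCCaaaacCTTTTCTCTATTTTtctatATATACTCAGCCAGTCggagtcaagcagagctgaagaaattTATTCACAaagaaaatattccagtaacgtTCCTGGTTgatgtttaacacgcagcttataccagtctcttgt
B230209E15Rik: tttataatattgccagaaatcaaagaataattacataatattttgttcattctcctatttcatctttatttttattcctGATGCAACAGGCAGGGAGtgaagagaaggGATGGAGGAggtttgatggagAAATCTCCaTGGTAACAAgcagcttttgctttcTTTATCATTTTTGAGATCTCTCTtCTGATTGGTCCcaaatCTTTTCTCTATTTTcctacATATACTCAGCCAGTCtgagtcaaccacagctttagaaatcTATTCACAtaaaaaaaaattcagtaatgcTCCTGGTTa
A330076H08Rik: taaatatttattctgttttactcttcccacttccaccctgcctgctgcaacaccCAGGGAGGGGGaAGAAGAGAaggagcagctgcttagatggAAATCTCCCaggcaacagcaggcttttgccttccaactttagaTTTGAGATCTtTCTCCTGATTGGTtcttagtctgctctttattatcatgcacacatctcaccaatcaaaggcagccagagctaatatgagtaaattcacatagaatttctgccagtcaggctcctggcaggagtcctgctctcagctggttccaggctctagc
For the A230006K03Rik window the best scores were 177.0 for B230209E15Rik, 175.0 for Gm29729 and 98.5 for A330076H08Rik, against 38.0 for the next best of the other windows, that of Il12b. The windows of Ipw and of the downstream start of A230006K03Rik had no score above 36.0 and 45.5 with any other window. The letters TGATTGG, searched on both strands and chosen after the windows had been aligned, were in 5 of the 6 member windows and in 7.80% of all 32817 distinct windows, and they overlap the letters CCAAT on the opposite strand (6 of 6 and 37.4%). The letters TATAAA were in 1 of the 6 windows and in 13.6% of all. These windows were poor in CG, with 0 to 4 each in the 6 member windows against a median of 7 over all windows. These matches describe the letters of the windows and were not tested against the expression values.

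The window of A330076H08Rik also holds the whole of miR-344g-5p, a mature microRNA of the Mir344 cluster. Of 19 named mature miR-344 sequences in this cluster, 6 have the same seed, miR-344g-5p among them. The seed is printed in capitals (bases 2 to 8).
miR-344g-5p: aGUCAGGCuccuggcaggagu
miR-344-5p: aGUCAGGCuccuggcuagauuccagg
These microRNAs have no probe set annotated with their names here, and their levels were not measured.

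Values are given as log2(intensity + 16), where intensity is the deposited linear value, and a difference is the PWS-IC del mean less the wild-type mean. The scale cannot go below 4.00, and it understates the change of dim probe sets. Tests are limma's moderated tests over all 45037 probe sets with Benjamini-Hochberg adjustment, and "lower" or "fell" means an adjusted p under 0.05. As a check of the labels, probe set 1421063_s_at of Snurf and Snrpn, the genes at the imprinting center, differed by -8.86 in brain and -5.12 in muscle. Markers of 10 neuronal genes had mean levels of 12.64 to 12.79 in the 7 brain arrays, and markers of 8 skeletal muscle genes 13.79 to 13.86 in the 7 muscle arrays. The brain arrays were not alike in other respects. Skeletal muscle markers were at 10.35 in wild-type brain 1 and 9.85 in wild-type brain 3, against 7.18 to 7.57 in the other brain arrays. Cerebellar markers were at 12.19 in PWS-IC del brain 2 and 9.67 in wild-type brain 3, against 7.55 to 8.0 in the other brain arrays, all of which are labelled whole brain. Pituitary markers were at 8.45 in wild-type brain 3 against 6.37 to 6.60 in the other brain arrays, and striatal markers ranged from 8.82 to 11.33. Choroid plexus markers were at 7.44 and 7.45 in wild-type brain 1 and 2, against 8.02 to 9.78 in the other brain arrays. Wild-type brain 1 and 2 also stood apart on the first principal component (53.1% of the variance), at 93.2 and 35.0 against -37.1 to -12.4. In bulk tissue, fewer cells that make a transcript and less of it per cell cannot be told apart.

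In brain, 6 of the 12 probe sets fell and 0 rose, against 28 of all 45037 probe sets lower (0.0622%) and 0 higher. The members were chosen with earlier results of these data known, so here and below such shares only describe and are no test. At an unadjusted p under 0.05, 10 members were lower and 0 higher, beside 3.69% of all probe sets lower and 1215 probe sets higher. The probe sets that fell belong to Snhg14, A230006K03Rik (2), Gm31445, B230209E15Rik and A330076H08Rik, with differences of -3.97 to -2.49. Ipw and Gm26504 had differences near 0. The median difference over the 12 was -2.54, beside -0.01 over all probe sets. In 9 of the 12 every PWS-IC del array was below every wild-type array, which held for 4.03% of all probe sets.

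Snhg14, the host transcript of the snoRNAs, was measured by 3 probe sets. On 1436964_at the wild-type brains stood at 12.01, 11.26, 11.93 and 11.66, and the PWS-IC del brains at 8.25, 8.29 and 7.71. The groups lay far apart, with a difference of -3.63 ± 0.22 (SE; adjusted p = 0.00036), and the mean mutant intensity was 7.61% of wild-type. On 1455087_at the wild-type brains were at 7.91, 7.97, 9.10 and 8.97, and the mutants at 5.74, 6.30 and 5.43. Here wild-type 1 and 2 lay well below wild-type 3 and 4, and although no mutant reached a wild-type value, the difference of -2.66 ± 0.35 missed the threshold (adjusted p = 0.068). The remaining probe set, 1445296_at, was near the floor, at 5.64, 5.76, 6.75 and 6.76 in wild-type and 4.73, 4.00 and 4.16 in mutant brain. It showed the same step between wild-type 1 and 2 and the other wild-type arrays, with a difference of -1.93 ± 0.33 (adjusted p = 0.373). Wild-type brain 1 and 2 were the lowest wild-type arrays on both of these probe sets, so leaving them out had to enlarge the difference. Without them, with 2 wild-type arrays left, both passed (-3.21, adjusted p = 0.00204, and -2.46, adjusted p = 0.00558). Without wild-type brain 1 alone 1455087_at passed (adjusted p = 0.0238). These fits are no separate support for a fall.

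A230006K03Rik, an uncharacterised transcript of the stretch beyond Snrpn, had the smallest p of the members in brain. On 1437332_at the wild-type brains were at 9.64, 9.26, 9.73 and 9.48, and the mutants at 5.35, 5.28 and 6.04. The difference was -3.97 ± 0.21 (adjusted p = 0.000169), and 4.47% of the wild-type intensity was left. On 1432408_a_at the levels were 9.40, 8.52, 8.72 and 8.40 in wild-type and 6.31, 6.15 and 6.33 in mutant brain. Wild-type 1 stood above the rest, and the mutants lay within 0.18 of each other, for a difference of -2.49 ± 0.23 (adjusted p = 0.00554). This call was lost when any mutant brain was left out (adjusted p 0.0529 to 0.0614).

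Gm31445, now joined to A230006K03Rik in RefSeq, fell on its own probe set 1437796_at. Its wild-type brains were at 8.96, 7.89, 7.91 and 7.56, again with wild-type 1 the highest, and its mutants at 4.54, 4.52 and 5.18. The difference was -3.33 ± 0.32 (adjusted p = 0.00855), and the mutant intensity was 4.17% of wild-type. Without wild-type 2, PWS-IC del 1 or PWS-IC del 2 the adjusted p rose to 0.0508, 0.0856 and 0.0868. The probe set annotated to both names, 1427738_at, did not fall, with brains at 5.91, 5.60, 6.31 and 5.66 in wild-type and 5.42, 5.10 and 5.64 in mutant. The groups overlapped, and its difference was -0.49 ± 0.20 (adjusted p = 0.644).

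B230209E15Rik, another noncoding transcript of that stretch, was at 10.36, 9.88, 10.41 and 10.53 in wild-type brain and at 6.57, 6.83 and 7.68 in mutant brain. PWS-IC del 3 was the highest mutant array and still far below the lowest wild-type array, and the transcript fell by 3.27 ± 0.27 (adjusted p = 0.00279; 9.69% of the wild-type intensity). A330076H08Rik lies within the Mir344 cluster, with 10 of the 13 Mir344 genes between B230209E15Rik and it. Its probe set 1456402_at was at 8.07, 6.96, 7.23 and 6.70 in wild-type and 4.43, 4.78 and 4.73 in mutant brain, with a difference of -2.59 ± 0.29 (adjusted p = 0.028). This call passed in 2 of the 7 fits that left out a single brain array, those without wild-type 1 or wild-type 4, and its adjusted p reached 0.216 in the others. Its other probe set, 1457557_at, was at 6.93, 6.06, 6.61 and 6.04 against 4.48, 5.49 and 4.22. The groups did not overlap there, but the difference of -1.68 ± 0.33 did not pass (adjusted p = 0.644). On both, wild-type brain 1 was the highest array.

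Ipw and Gm26504, which lies inside its span, did not fall, and their groups overlapped. The single probe set of Ipw, 1431229_at, was at 9.05, 8.79, 8.79 and 9.21 in wild-type brain and at 9.09, 8.57 and 8.95 in mutant brain, a difference of -0.09 ± 0.17 (adjusted p = 0.832). The signal was well above the floor, with a mean wild-type intensity of 486, and the mutant mean was 94.1% of it. Gm26504, which RefSeq gives as a Snord116 snoRNA, was dim on 1427598_at, at 5.48, 5.18, 5.13 and 5.33 in wild-type and 4.75, 5.39 and 5.44 in mutant brain. Its mean intensities were 23.0 and 21.4, which leaves little room for a fall, and the difference was -0.09 ± 0.19 (adjusted p = 0.855).

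**Figure D1:**
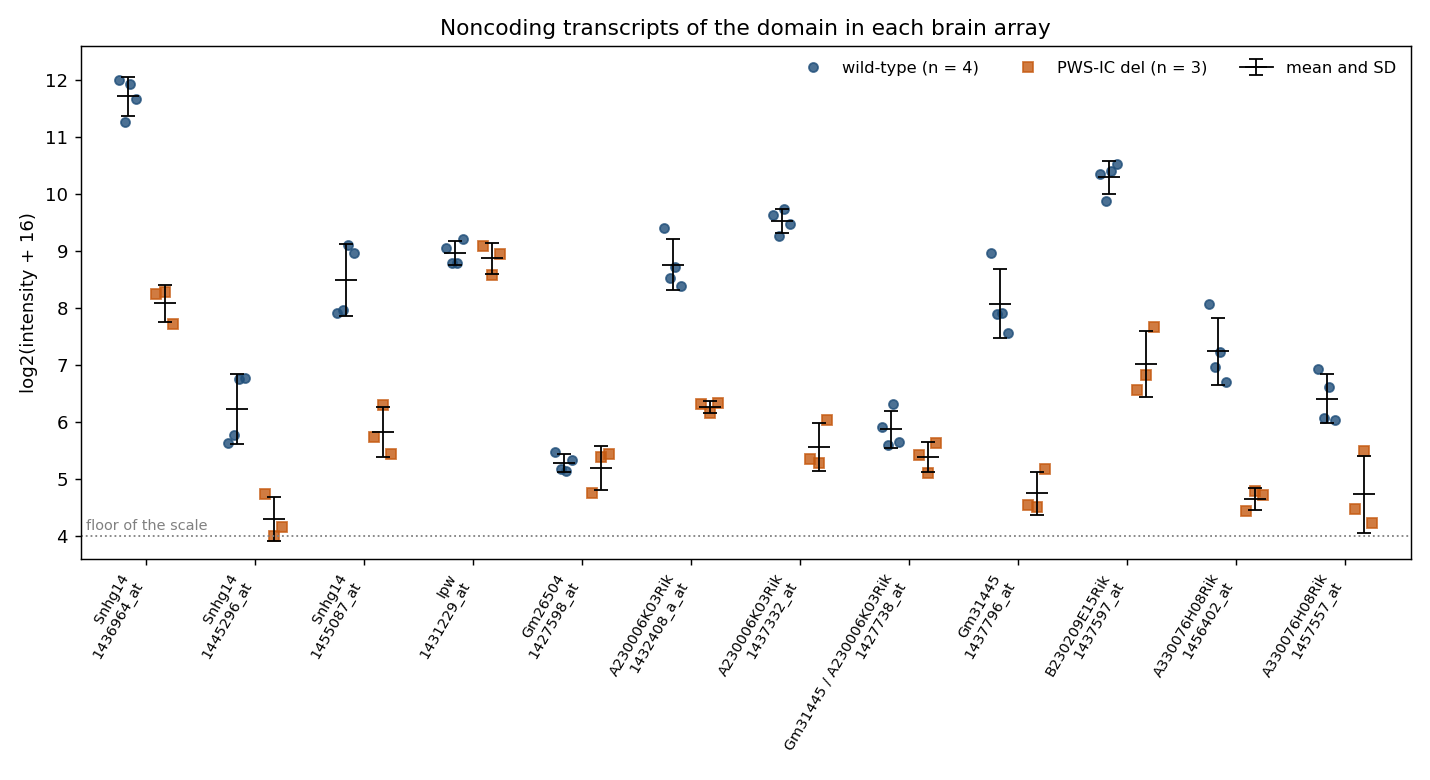
Level of each of the 12 probe sets in each brain array, as log2(intensity + 16), for 4 wild-type (circles) and 3 PWS-IC del (squares) arrays, with black marks for the mean and SD and a dotted line at the floor of the scale. The groups lie apart on 9 of the 12 probe sets and overlap for Ipw, Gm26504 and the probe set annotated to both Gm31445 and A230006K03Rik.

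The brain calls rested on few arrays. Snhg14 on 1436964_at, A230006K03Rik on 1437332_at and B230209E15Rik passed in all 7 fits that left out a single brain array. The count of members that fell was 3 without PWS-IC del 1 and 3 without PWS-IC del 2, 4 without wild-type 2 and 4 without PWS-IC del 3, and 7 without wild-type 1. Leaving out both arrays with high muscle markers, wild-type 1 and 3, gave 5, with B230209E15Rik at -3.18 (adjusted p = 0.0651). Leaving out wild-type 1 and 2 gave 8, among them the 2 Snhg14 probe sets on which those were the lowest wild-type arrays. Skeletal muscle markers had negative differences in brain for 7 of 8 genes (median -1.61) and striatal markers for 6 of 6 (median -0.71). Cerebellar markers had negative differences for 0 of 6 (median 0.96), and 0 of each list were called by limma. At an unadjusted p under 0.05, 2 of the muscle markers and 0 of the other 2 lists were lower. Neuronal markers had a median difference of -0.01, with 5 of 10 differences negative and 0 called.

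In muscle, where most of these transcripts were dim, only Snhg14 fell. Of the 12 probe sets, 2 fell and 0 rose, against 25 of all 45037 lower (0.0555%) and 4 higher (0.00888%), and the median difference was -0.02, beside -0.00 over all probe sets. The 2 were also the only members whose groups did not overlap, which held for 6.06% of all probe sets in the downward direction. At an unadjusted p under 0.05 the member counts were again 2 lower and 0 higher, beside 6.17% of all probe sets lower.

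Snhg14 on 1436964_at was at 8.16, 8.41, 8.34 and 8.24 in wild-type muscle and at 6.13, 5.92 and 6.23 in mutant muscle. The arrays of each group lay close together, and the difference was -2.20 ± 0.11 (adjusted p = 0.000123), with 17.7% of the wild-type intensity left. On 1455087_at the levels were 7.52, 7.59, 7.75 and 7.64 in wild-type and 5.59, 5.66 and 5.63 in mutant muscle. The step between wild-type arrays that this probe set showed in brain was not present in muscle, and the transcript fell by 2.00 ± 0.09 (adjusted p = 7.92e-05; 18.4% of the wild-type intensity). Both calls held in all 7 fits that left out a single muscle array. The probe set near the floor, 1445296_at, ranged from 4.00 to 5.23 in wild-type and from 4.00 to 4.30 in mutant muscle (-0.37 ± 0.25, adjusted p = 0.654). Neuronal markers had lower values in mutant muscle for 9 of 10 genes (median -0.37, 0 called by limma, 0 at an unadjusted p under 0.05). Their array means ran from 5.58 to 7.31 in wild-type muscle and, in mutant muscle, from 5.87 to 6.38. Their part in the fall of Snhg14 was not tested.

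A230006K03Rik did not fall in muscle. On 1437332_at muscle stood at 6.54, 6.65, 6.62 and 6.76 in wild-type and 6.40, 6.66 and 6.98 in mutant mice (0.04 ± 0.14, adjusted p = 0.947). The groups overlapped, as they did on 1432408_a_at, which ranged from 5.61 to 5.86 and from 5.65 to 5.83. Gm31445 ranged from 4.46 to 4.93 and from 4.56 to 4.83, and the probe set shared by both names from 6.07 to 6.49 and from 5.50 to 6.35. B230209E15Rik was near the floor in muscle, at 4.06 to 4.86 in wild-type and 4.00 to 4.53 in mutant mice, as was A330076H08Rik on 1456402_at (4.00 to 4.78 and 4.00 to 4.69). Its other probe set, 1457557_at, ranged from 4.99 to 5.36 in wild-type and from 5.14 to 5.18 in mutant muscle. Ipw was at 5.17, 5.72, 6.20 and 4.84 in wild-type and 6.07, 6.11 and 5.73 in mutant muscle, a difference of 0.49 ± 0.29 (adjusted p = 0.6). Gm26504 ranged from 5.07 to 5.22 and from 5.01 to 5.35. None of these 9 probe sets passed the test in muscle, and those near the floor had little room to fall.

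**Figure D2:**
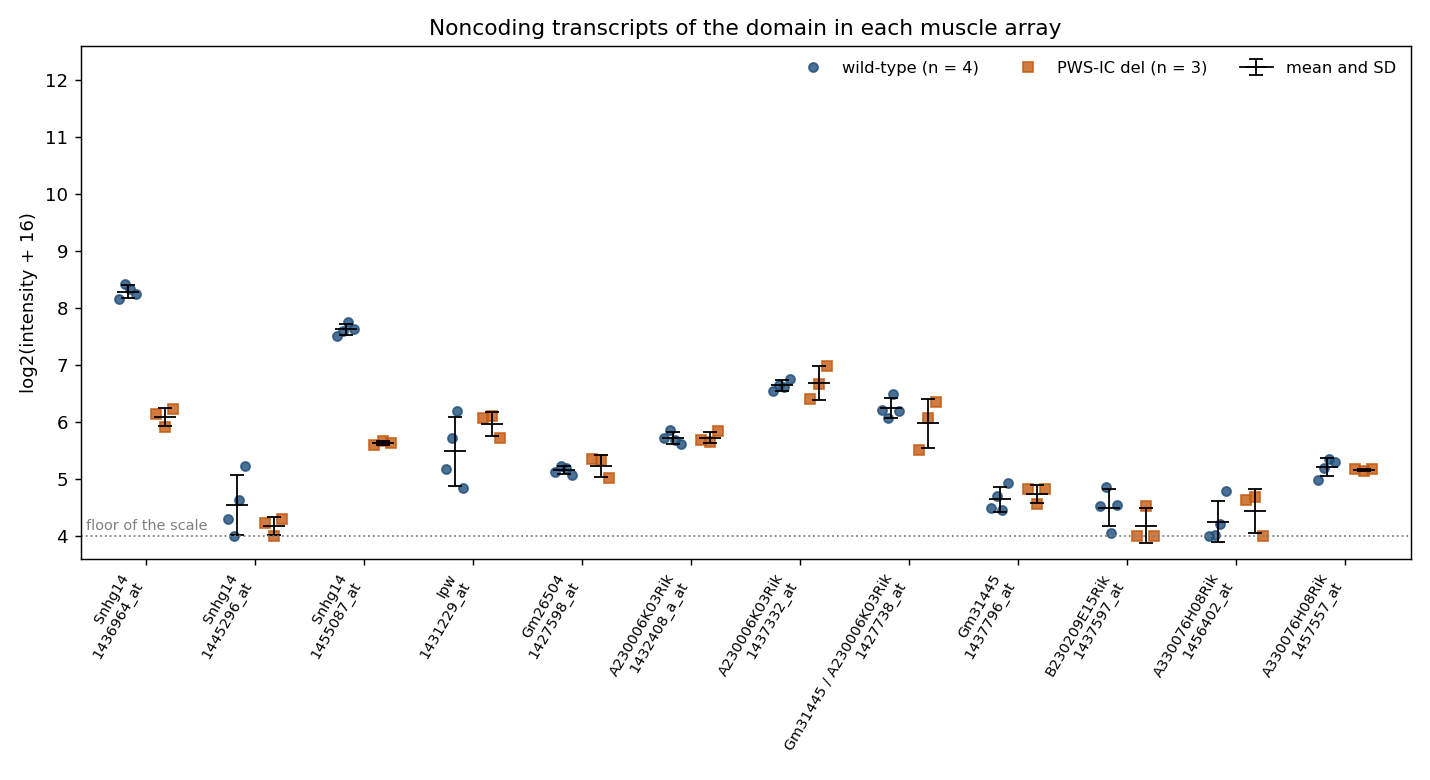
Level of each of the 12 probe sets in each muscle array, as log2(intensity + 16), on the same axis as for brain, with 4 wild-type (circles) and 3 PWS-IC del (squares) arrays, black marks for the mean and SD and a dotted line at the floor. The groups lie apart only on the Snhg14 probe sets 1436964_at and 1455087_at, and B230209E15Rik and A330076H08Rik on 1456402_at lie near the floor.

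Whether the genotype difference itself differed between the tissues was tested as an interaction over all 14 arrays. It passed for 5 of the 12 probe sets, all more negative in brain, against 25 of all 45037 probe sets in that direction (0.0555%). They were A230006K03Rik on 1437332_at (-4.01 ± 0.26, adjusted p = 6.3e-06) and on 1432408_a_at (-2.50 ± 0.26, adjusted p = 0.000674), Gm31445 (-3.42 ± 0.38, adjusted p = 0.00109), B230209E15Rik (-2.95 ± 0.36, adjusted p = 0.00337) and A330076H08Rik on 1456402_at (-2.78 ± 0.40, adjusted p = 0.0151). Gm31445, B230209E15Rik and A330076H08Rik on 1456402_at lay near the floor in muscle, which left little room for a fall there. A230006K03Rik lay above it in wild-type muscle, at 6.64 ± 0.09 on 1437332_at and 5.72 ± 0.11 on 1432408_a_at (SD, n = 4). Even there, falls as large as those in brain (-3.97 and -2.49) would have passed the floor of 4.00. On all 5 probe sets the floor thus limits how far a muscle difference could offset the brain difference. The muscle differences observed for A230006K03Rik were 0.04 on 1437332_at and 0.0045 on 1432408_a_at. The part of the floor in these interactions was not tested. For Snhg14 the interaction did not pass on any probe set, at -1.44 ± 0.25 (adjusted p = 0.085) on 1436964_at and -0.66 ± 0.38 (adjusted p = 0.919) on 1455087_at. Without wild-type brain 2 the former passed (-1.59, adjusted p = 0.0157). A330076H08Rik passed in 9 of the 14 fits that left out a single array, with an adjusted p of up to 0.0729 in the others. With 1 instead of 16 added to the intensity, B230209E15Rik (-1.80, adjusted p = 0.931) and A330076H08Rik on 1456402_at (-4.62, adjusted p = 0.669) did not pass. With 64 added, A330076H08Rik did not pass either (-1.52, adjusted p = 0.0554).

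**Figure D3:**
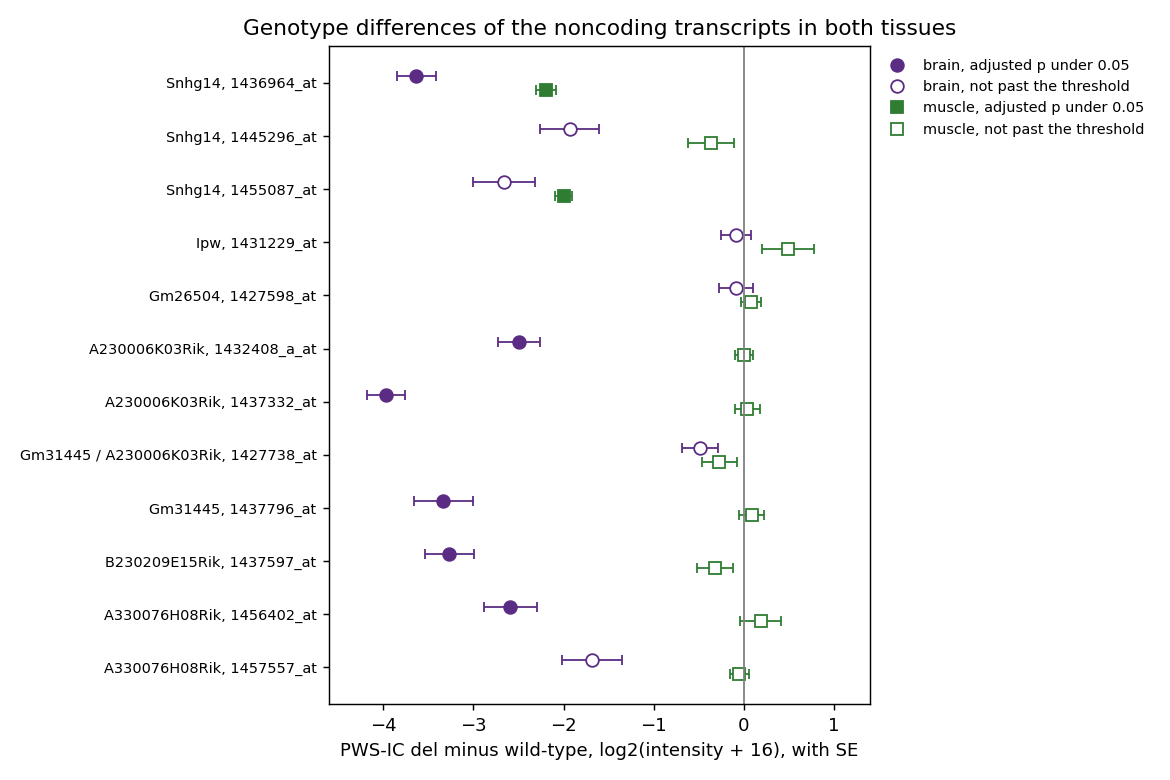
Difference between PWS-IC del and wild-type mice for each of the 12 probe sets, in brain (circles) and muscle (squares), on the log2(intensity + 16) scale with SE bars, filled where the adjusted p was under 0.05. Brain values reach -3.97 for A230006K03Rik, while in muscle only the Snhg14 values of -2.20 and -2.0 pass.

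In unaltered mice most of these transcripts were higher in brain than in muscle. Wild-type brain was higher on 10 of the 12 probe sets, but so were 54.8% of all probe sets, 24668 of them against 7169 lower (15.9% of all and 22.5% of the calls), and the median over all was 0.43. That split depended on scaling, since 56.9% of the calls were lower after quantile normalization and 63.0% after median centring, with medians of -0.11 and -0.24 over all probe sets. B230209E15Rik differed by 5.79 ± 0.24 (adjusted p = 2.03e-11), Ipw by 3.48 ± 0.24, Gm31445 by 3.43 ± 0.25 and Snhg14 on 1436964_at by 3.43 ± 0.17. For B230209E15Rik, Gm31445 and A330076H08Rik on 1456402_at, which were near the floor in muscle, the size depends on the pseudocount of 16, so these differences give no order. A230006K03Rik differed by 3.04 and 2.88 on its own 2 probe sets and A330076H08Rik by 2.99 and 1.20. Snhg14 on 1455087_at differed by only 0.86 ± 0.25 (adjusted p = 0.00698), which fell to 0.04 after quantile normalization and 0.19 after median centring (adjusted p = 0.889 and 0.531). Gm26504 (0.13) and the probe set shared by Gm31445 and A230006K03Rik (-0.37, adjusted p = 0.101) did not pass. With quantile normalization and median centring the shared probe set was lower in brain, at -0.90 and -1.05 (adjusted p = 0.000673 and 0.000239), and Gm26504 changed sign to -0.25 and -0.55 (adjusted p = 0.157 and 0.00455).

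The order of the 4 groups was not the same for all members. On Snhg14 1436964_at wild-type brain (11.72 ± 0.34, SD, n = 4) was followed by wild-type muscle (8.29 ± 0.11, n = 4), PWS-IC del brain (8.08 ± 0.32, n = 3) and PWS-IC del muscle (6.09 ± 0.16, n = 3), and the middle groups overlapped. On 1455087_at the 2 mutant groups came last and overlapped, at 5.82 ± 0.44 in brain and 5.63 ± 0.04 in muscle. On A230006K03Rik 1437332_at mutant brain was the lowest group, at 5.56 ± 0.42, below both muscle groups (6.64 ± 0.09 and 6.68 ± 0.29), and its highest array, 6.04, did not reach the lowest muscle array, 6.40. On the same gene's 1432408_a_at mutant brain stood at 6.26 ± 0.10 and the muscle groups at 5.72 ± 0.11 and 5.72 ± 0.10. This order rests on the scaling, since these groups overlapped after quantile normalization (6.08 against 5.95 and 5.99) and mutant brain had the lowest mean after median centring (5.98 against 6.03 and 6.07). For Gm31445 mutant brain (4.75 ± 0.37) overlapped both muscle groups, and for B230209E15Rik it stayed above them (7.02 ± 0.58 against 4.50 ± 0.33 and 4.18 ± 0.31). After both of these scalings mutant brain was still below muscle on 1437332_at and above it for B230209E15Rik, without overlap, and Gm31445 still overlapped. On Snhg14 1436964_at mutant brain then lay below wild-type muscle without overlap (7.70 against 8.73, and 7.80 against 8.60), and on 1455087_at mutant brain had a lower mean than mutant muscle, with overlap (5.66 against 5.88, and 5.54 against 5.97). Differences between mutant brain and muscle were not tested.

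The 2 probe sets annotated to C230091D08Rik, a RefSeq synonym of Snhg14, did not fall. In brain, 1438695_at was at 10.62, 10.72, 10.64 and 10.74 in wild-type and 11.53, 11.34 and 11.43 in mutant mice. All mutants were above all wild-type arrays, but the difference of 0.76 ± 0.10 did not pass over all probe sets (adjusted p = 0.104). The other, 1437354_at, differed by 0.90 ± 0.19 (adjusted p = 0.644), also without overlap. How many of all probe sets lay apart in the upward direction was not counted. In muscle they differed by 0.14 and 0.21 (adjusted p = 0.622 and 0.652). Ube3a, which Snhg14 overlaps on the opposite strand, had brain differences from -0.40 to 0.99 on its 6 probe sets. Of these 0 passed (smallest adjusted p = 0.644), and 3 were higher at an unadjusted p under 0.05, beside 1215 of all 45037 probe sets. The strand that each of these probe sets reads was not analysed here.

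Protein genes of the same domain also fell. Of 12 probe sets of Snrpn, Ndn, Magel2, Mkrn3 and Peg12 with a single symbol, 9 fell in brain (median -4.20) and 7 in muscle (median -1.55), and 0 rose. Ndn has 8 of these 12 probe sets, so the counts and medians mostly describe that gene. It gave 7 of the calls in brain and all 7 in muscle. Of the 6 probe sets annotated to both Snurf and Snrpn, 6 fell in brain and 4 in muscle. Ndn, the gene of necdin, a MAGE family protein, fell on 7 of its 8 probe sets in both tissues, by up to 4.83 in brain and 3.22 in muscle. Snrpn, which encodes a spliceosomal protein, differed on its own probe set 1432096_at by -4.87 in brain and by -0.39 in muscle (adjusted p = 0.000439 and 0.405), and its interaction of -4.48 passed (adjusted p = 5.67e-05). Mkrn3, a ubiquitin ligase gene, fell by 1.54 in brain (adjusted p = 0.00202) and was at -0.32 in muscle. Magel2, another MAGE family gene, was at -1.95 in brain (adjusted p = 0.0786) and -0.03 in muscle (adjusted p = 0.957). Peg12 was at -0.19 in brain (adjusted p = 0.75), where its wild-type mean of 4.53 left little room for a fall. In muscle Peg12 was at -0.76 (adjusted p = 0.14), with means of 4.76 in wild-type and 4.00 in mutant mice.

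Other lists showed no such shift. Of the 12 probe sets of Ube3a, Atp10a and C230091D08Rik, 0 passed in either direction in brain (median 0.28, 5 higher and 0 lower at an unadjusted p under 0.05) or in muscle (median 0.12, 0 and 0). Of 17 probe sets of neighbours that are not imprinted, such as the GABA receptor genes Gabra5 and Gabrg3, 0 passed in brain (median 0.01) and 0 in muscle (0.07), with 3 in each tissue at an unadjusted p under 0.05. By gene, Tubgcp5 (-0.48 on 1439923_at), Herc2 (-0.38 on 1427623_at) and Gabrg3 (-0.36 on 1444549_at) had the smallest brain p of this list. On their brightest single-symbol probe sets in wild-type brain these genes were at 0.29 (1426518_at), 0.01 (1426491_at) and -0.39 (1445846_at). Of 30 probe sets of imprinted long noncoding transcripts elsewhere, 0 passed in brain (median -0.35, 1 lower unadjusted) and 0 in muscle (median 0.10, 2 lower and 5 higher unadjusted). Meg3, Airn and Usp29 led them in brain, at -0.77, -0.24 and -0.20. Of 27 probe sets of other snoRNA hosts, 0 passed in brain (median 0.11, 4 higher unadjusted) and 0 in muscle (0.09, 2 higher unadjusted). Snhg12 (0.33), Snhg6 (0.37) and Snhg8 (0.36) had the smallest brain p among them, with an adjusted p of 0.644 each in limma's test.

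**Figure D4:**
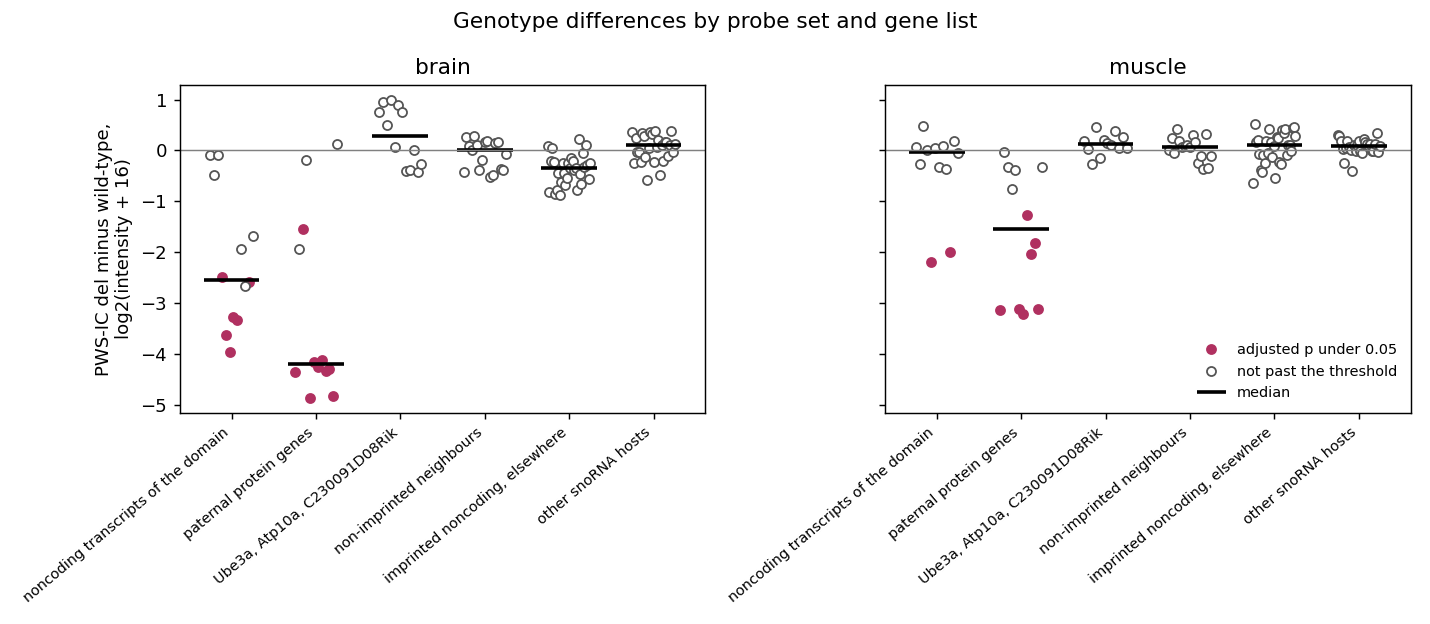
Difference between PWS-IC del and wild-type mice for each probe set of the noncoding transcripts and of 5 other gene lists, in brain (left) and muscle (right), on the log2(intensity + 16) scale, filled where the adjusted p was under 0.05, with a bar at the median of each list. Only the noncoding transcripts and the paternally expressed protein genes of the domain hold probe sets that passed, with medians of -2.54 and -4.20 in brain. Of the 12 probe sets of the protein genes, 8 are of Ndn.

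The pattern of A230006K03Rik on 1437332_at over the 14 arrays, as values less the mean of their tissue, was most like that of probe set 1457652_x_at (Pearson r = 0.987), which has no symbol, among 8390 probe sets with enough spread. Next came 1700020G03Rik (0.984), 1458081_at without a symbol (0.980), a probe set of Snurf and Snrpn (0.965) and Snrpn 1432096_at (0.965). These correlations describe arrays that share the genotype step and carry no test. In brain these 5 differed by -2.87, -1.65, -2.42, -1.98 and -4.87, and in muscle by -0.22, 0.02, 0.24, -0.04 and -0.39.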

How the data were processed

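RNA of 14 mouse samples was measured, each on its own array. The authors deposited linear intensity values, 1 per probe set and array, made with PLIER and the Affymetrix Expression Console per the submitters' processing notes. Which settings, background correction and normalization they used is not known here. The 64 control probe sets were left out, and no probe set was left out for a low value. Deposited intensities were taken as log2(intensity + 16). Brain and muscle had separate fits in limma 3.58.1 (lmFit and eBayes, R 4.3.3), and the interaction and the wild-type tissue difference came from a joint fit of all 14 arrays. The 2-sided p-values were adjusted by Benjamini-Hochberg over all 45037 probe sets, with a threshold of 0.05. The number of arrays limits the precision, and an exact permutation of 4 against 3 arrays cannot give a p below 0.0286. Replicates are called biological in the titles.

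Groups came from the sample titles. Members and lists were chosen with earlier results of these data known. All member probe sets and all single-symbol probe sets of the domain lists were named or given by gene, and for other lists the 3 genes with the smallest brain p. Likeness took the 5 best correlations with the member of lowest brain p, among probe sets with a within-tissue SD of at least 0.3. The platform annotation named the probe sets. It gave 1 symbol to 34945, several to 932 and none to 9160. Promoter windows and microRNAs came from RefSeq (GRCm38.p6) and were aligned locally with Biopython 1.88 (match 1, mismatch -1, gap opening -2, gap extension -0.5). The fits were checked on simulated data. Alternatives covered the pseudocount, normalization, low probe sets, an intensity trend, array weights, the threshold, a joint fit, the replicate block, 1 probe set per gene and left-out arrays.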

Additional observations from a re-analysis of the deposited data

Results flagged for a closer look

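The genotype difference was more negative in brain than in muscle by the interaction test for 5 member probe sets. For A230006K03Rik the difference of the differences was -4.01 on 1437332_at and -2.50 on 1432408_a_at, for Gm31445 it was -3.42 on 1437796_at, for B230209E15Rik -2.95 on 1437597_at and for A330076H08Rik -2.78 on 1456402_at. The calls of B230209E15Rik and A330076H08Rik did not hold with a pseudocount of 1. All 5 probe sets had less room to fall in muscle than they fell in brain. No member's group of 4 wild-type arrays held an array that stood apart by Dixon's test, and groups of 3 were not tested.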

How the results depend on the processing

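Members that fell kept their direction in every alternative run. The count of members lower in brain, 6, was 4 with a pseudocount of 64, 7 with an intensity trend, array weights or a threshold of 0.1, 9 in a joint fit, and 3 to 7 when single arrays were left out. In muscle it was 2 in every alternative on all 12 probe sets. With the replicate number as a fixed term (replicate block) the brain count was 1 and the muscle count 2. In that fit wild-type 4 has no mutant array of the same number. Same-numbered deviations correlated by -0.31 to 0.01 in brain and 0.00 to 0.30 in muscle. Of the arrays, 0 of 6 in brain and 2 of 6 in muscle correlated best with their own number. These few correlations do not show a pairing and cannot exclude one. Interaction calls, 5, came to 3 with a pseudocount of 1, where B230209E15Rik and A330076H08Rik were lost. They stayed at 5 with a pseudocount of 64, with Snhg14 1436964_at in place of A330076H08Rik. They came to 3 with low probe sets left out (6 members tested) and to 4 to 6 without single arrays. Members called between wild-type tissues, 10, came to 6 of 6 tested with low probe sets left out. With 1 probe set per gene, 4 of 7 members fell in brain and 1 of 7 in muscle.

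Small differences changed sign. Without single arrays, Gm26504 ranged from -0.21 to 0.13 in brain and -0.28 to 0.059 in the interaction, Ipw in brain from -0.20 to 0.059, and in muscle A230006K03Rik from -0.051 to 0.051 (1432408_a_at) and -0.11 to 0.18 (1437332_at) and A330076H08Rik on 1457557_at from -0.12 to 0.00075. With array weights Ipw in brain was 0.052, and in muscle A230006K03Rik 1432408_a_at was -0.030 (-0.033 with the replicate block) and Gm31445 -0.0057. Between tissues Gm26504 was -0.25 (quantile normalization) and -0.55 (median centring), and without wild-type brain 1 and 3 the shared probe set's interaction was 0.024. The cause was not tested.

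Calls over all probe sets, 28 in brain and 29 in muscle, were 11 and 11 with the replicate block and 10 and 7 with 1 probe set per gene (18193 tested). In muscle they were 48 with low probe sets left out, 57 with a pseudocount of 64, 70 at a threshold of 0.1, 78 with an intensity trend, 190 with array weights and 15 to 22 without single arrays. Interaction calls over all probe sets, 29, were 19 with a pseudocount of 1 and 12 with 1 probe set per gene, where the wild-type tissue calls, 31837, were 13839.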

Other observations

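Of the 28 probe sets that fell in brain, 6 were members, 15 were annotated to protein genes of the domain, 4 had no symbol and 3 carried other symbols. The 4 without a symbol were 1440628_at (-3.95), 1440557_at (-3.21), 1457652_x_at (-2.87) and 1458081_at (-2.42), and in muscle they differed by -0.17, 0.44, -0.22 and 0.24. The 3 others were Gm5802 (-2.33), 1700020G03Rik (-1.65) and Gzmb (-1.22), of which Gm5802 also fell in muscle (-1.55). These probe sets were chosen after their values were seen.

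A230057D06Rik, a noncoding transcript that RefSeq places inside the Mir344 cluster, between B230209E15Rik and A330076H08Rik, was looked at because of that position. Its probe set 1445875_at was at 5.82, 5.20, 5.65 and 5.63 in wild-type and 5.76, 5.54 and 5.52 in mutant brain. The groups overlapped, and the difference was 0.03 ± 0.16 (SE, adjusted p = 0.944 by limma). In muscle the difference was 0.21 ± 0.20 (adjusted p = 0.746). The members on either side of it differed in brain by -3.27 (B230209E15Rik) and -2.59 (A330076H08Rik on 1456402_at), from wild-type means of 10.29 and 7.24.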
